A study of Mus musculus with 8 samples.

Results

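The *mdx* mouse, which lacks dystrophin, is a model of Duchenne muscular dystrophy, and fibro/adipogenic progenitors (FAPs) are the mesenchymal cells of its muscle that can become fibroblasts or adipocytes. A set of 9 imprinted growth-control genes was followed in these cells: *H19*, *Meg3*, *Dlk1*, *Cdkn1c*, *Mest*, *Peg3*, *Ndn*, *Plagl1* and *Grb10*. They form a list of genes tied to an imprinted network of growth and progenitor quiescence, chosen with earlier results of these data known. They are 9 of the 31053 genes in the count files. All 9 were found in the files by their identifiers and all 9 passed the filter on low counts, as did 10181 genes in total.

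The cells came from hind limb muscles of 4 C57BL/10ScSn-Dmdmdx/J mice aged 45 days, so both groups carry the same *Dmd* mutation and no wild type group was analysed here. Cells negative for CD45, CD31 and integrin alpha-7 and positive for SCA-1 were sorted on the amount of SCA-1 at their surface into SCA1-High-FAPs and SCA1-Low-FAPs. RNA was taken from both FAP cell states after 5 days of culture in growth medium (GM). Each state has 4 replicates, and 3′ mRNA sequencing placed 1880561 to 3985656 reads per sample on genes. The limit set by 3 counts thus lies between 0.753 and 1.6 CPM (counts per 1000000 counts), taken over all genes before normalisation. The CPM of genes below are normalised and taken over tested genes, so this limit is approximate for them.

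Most genes are read from both parental copies. An imprinted gene is read mainly from the maternal or from the paternal copy, because DNA methylation laid down in the germ line marks the copies differently. Many imprinted genes act on growth, with maternally expressed genes often restraining it and paternally expressed genes often favouring it, and several are high in embryonic tissue and in resting stem and progenitor cells. *H19* and *Meg3* are maternally expressed long noncoding RNAs, *Cdkn1c* (also called p57Kip2) is a maternally expressed inhibitor of cyclin-dependent kinases, and *Grb10* is an adaptor that dampens insulin and insulin-like growth factor receptors. *Dlk1*, *Mest*, *Peg3*, *Ndn* and *Plagl1* are expressed from the paternal copy. The counts carry no information on the parental copy, so the values below are totals over both copies.

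The sort label was checked against its own mRNA. *Ly6a*, the gene of SCA-1, measured 492.0, 788.9, 644.6 and 919.0 CPM in SCA1-High-FAPs replicates 1 to 4 and 1100, 1080, 1156 and 1014 CPM in SCA1-Low-FAPs replicates 1 to 4. After culture *Ly6a* mRNA was therefore higher in cells of the SCA1-Low-FAPs group, by 0.61 ± 0.17 SE on the log2 scale (adjusted p = 0.0341), which goes against the label. The label describes surface protein at sorting, and the names SCA1-High-FAPs and SCA1-Low-FAPs stand below for the sorted groups. As for cell identity, the FAP markers *Pdgfra* and *Col1a1* were present in every sample, at 157.1 to 291.4 CPM and 5058 to 8882 CPM. Among myogenic markers *Pax7*, *Myod1*, *Myf5*, *Myog*, *Myh3* and *Ckm* had no count in any sample, and the whole list of 10 summed to 0 to 6.59 CPM in SCA1-High-FAPs and 0 to 15.2 CPM in SCA1-Low-FAPs, highest in replicate 2. The 6 endothelial markers summed to 7.39 CPM or less, and the 8 leucocyte markers to 25.3 to 48 CPM in SCA1-High-FAPs and 12.5 to 19.3 CPM in SCA1-Low-FAPs. Of the leucocyte markers *Adgre1*, *Itgam*, *Cd3e* and *Tyrobp* had no count, and *Lyz2*, the only one tested, was called higher in SCA1-High-FAPs. The remaining marker sums were 23.5 to 39.7 and 25.4 to 68.6 CPM for smooth muscle and pericyte markers, 395.8 to 675.9 and 543.0 to 948.0 CPM for tendon cell markers, and 10.6 to 20 and 7.62 to 10.6 CPM for Schwann cell markers, SCA1-High-FAPs first. Of the smooth muscle and pericyte markers 3 were tested and all 3 were called, beside 7.68% of all tested genes. *Myh11* and *Cspg4* were higher in SCA1-Low-FAPs and *Notch3* was higher in SCA1-High-FAPs. The part of such cells in the results below was not tested. *Xist* was counted only in replicates 3 and 4 of both states and *Ddx3y*, *Eif2s3y*, *Kdm5d* and *Uty* only in replicates 1 and 2, so this division is balanced between the states.

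Several of the 9 genes also carry microRNAs within their transcripts, and these sequences are shown because a change in the host transcript is a change in the RNA from which they can be cut. The mature sequences are those of RefSeq on GRCm38.p6, with bases 2 to 8, the seed that pairs with targets, in capitals. *H19* holds both arms of miR-675 on the minus strand, at chr7:142577112-142577133 and chr7:142577078-142577099.

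mmu-miR-675-5p: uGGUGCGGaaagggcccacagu
mmu-miR-675-3p: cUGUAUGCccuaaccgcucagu

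An intron of *Mest* holds both arms of miR-335, at chr6:30741314-30741336 and chr6:30741354-30741375 on the plus strand.

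mmu-miR-335-5p: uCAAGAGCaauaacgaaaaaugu
mmu-miR-335-3p: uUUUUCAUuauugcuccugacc

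*Meg3* holds miR-770 at chr12:109563710-109563731 and chr12:109563744-109563765 and miR-1906 at chr12:109544588-109544609, all on the plus strand.

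mmu-miR-770-5p: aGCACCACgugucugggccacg
mmu-miR-770-3p: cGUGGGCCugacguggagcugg
mmu-miR-1906: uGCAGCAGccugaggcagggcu

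The 7 seeds all differ, so no pair of these microRNAs forms a family by seed. The libraries were made from poly-A RNA and the microRNAs were not measured, so the values below describe their host transcripts.

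Of the 9 imprinted growth-control genes, *H19* and *Cdkn1c* differed between the FAP cell states, and both were higher in SCA1-High-FAPs. A gene was called when its adjusted p in the quasi-likelihood test of edgeR was under 0.05 and its log2 fold change, SCA1-Low-FAPs over SCA1-High-FAPs, was beyond 0.5 in size. The 2 called genes stand beside 7.68% of all tested genes called in either direction, of which 4.36% of tested genes were higher in SCA1-High-FAPs and 3.32% were higher in SCA1-Low-FAPs. The median log2 fold change of the 9 genes was -0.40, against 0.00029 over all genes tested. Those 2 genes were also the ones whose groups did not overlap, both with SCA1-High-FAPs above. Of all tested genes 14.1% had groups apart, 7.46% with SCA1-High-FAPs above and 6.67% with SCA1-Low-FAPs above. Because the 9 genes were chosen with earlier results of these data known, these comparisons with all tested genes describe the set and are no test. In bulk RNA such as this, fewer cells that express a gene and less of its RNA per cell cannot be told apart.

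**Figure D1:**
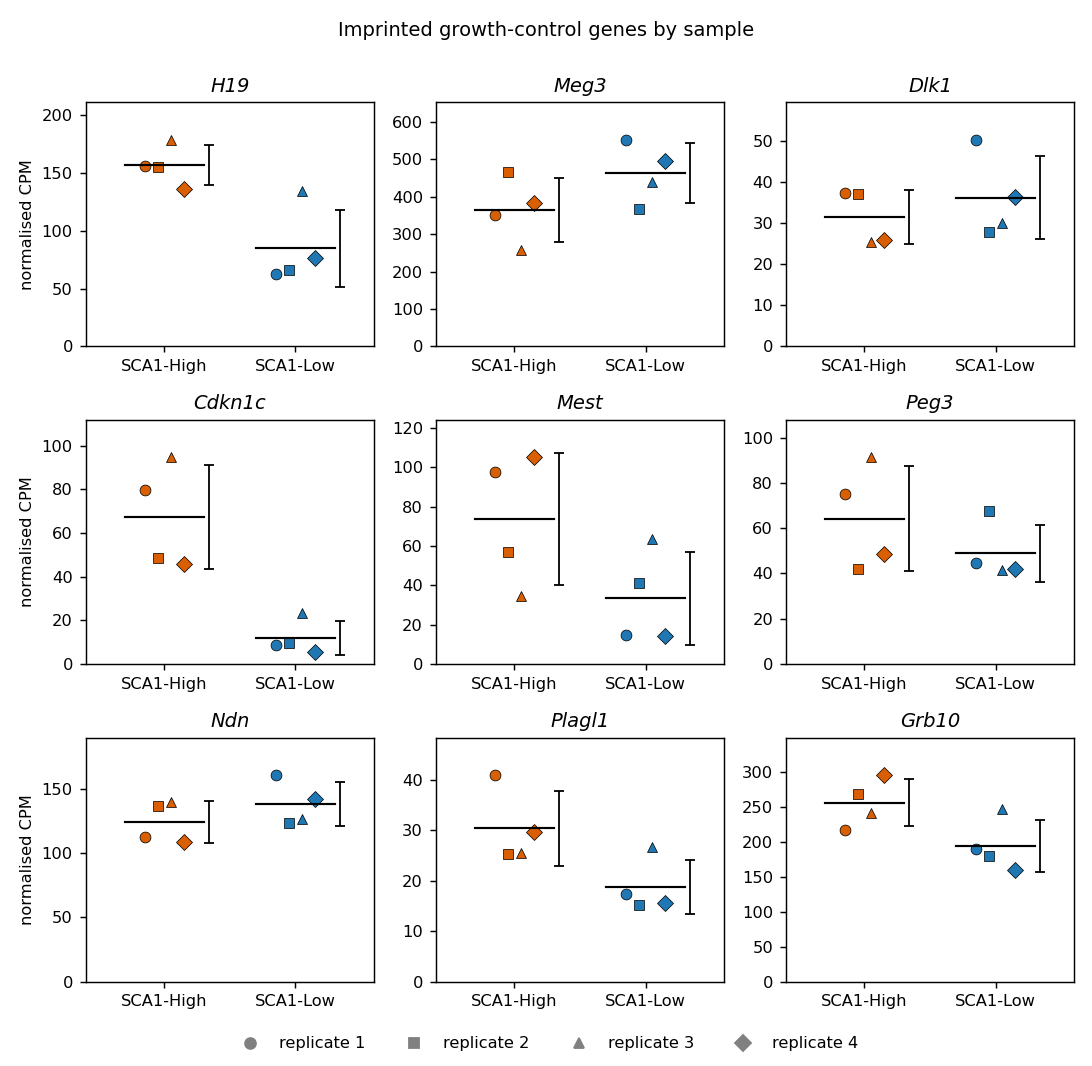
Normalised CPM (y axis, from 0, with its own scale in each panel) of the 9 imprinted growth-control genes in the 4 SCA1-High-FAPs (orange) and the 4 SCA1-Low-FAPs (blue) samples; marker shape gives the replicate number, lines the group mean and bars 1 SD. The groups are separate for *H19* and *Cdkn1c* and overlap for the other 7 genes, and the SCA1-Low-FAPs triangle (replicate 3) lies nearest the SCA1-High-FAPs values for *H19* and *Cdkn1c*.

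*Cdkn1c* (chr7:143458339-143461050, minus strand, GRCm38) showed the largest difference of the 9. It measured 79.6, 48.8, 94.8 and 45.8 CPM in SCA1-High-FAPs replicates 1 to 4 and 8.7, 9.8, 23.2 and 5.54 CPM in SCA1-Low-FAPs replicates 1 to 4. The lowest SCA1-High-FAPs sample was thus above the highest SCA1-Low-FAPs sample. Means of 67.3 ± 23.9 and 11.8 ± 7.78 CPM (SD, n = 4 each) gave a 5.62-fold higher level in SCA1-High-FAPs (log2 fold change -2.49 ± 0.40 SE, 95% interval -3.34 to -1.64, adjusted p = 0.00185). The SCA1-Low-FAPs values rest on 18 to 73 counts per sample and the SCA1-High-FAPs values on 108 to 227. *Cdkn1c* passed the thresholds in each of 14 alternative analyses, with adjusted p-values from 3.77e-08 to 0.0125. The antisense gene *Gm44732*, which overlaps *Cdkn1c* on the other strand, had no count in any sample.

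*H19* (chr7:142575529-142578143, minus strand, annotated as a long intergenic noncoding RNA) differed less. Its levels were 156.3, 155.5, 179.1 and 136.4 CPM in SCA1-High-FAPs and 62.4, 66.4, 134.5 and 76.6 CPM in SCA1-Low-FAPs, replicates 1 to 4. The groups met closely at SCA1-High-FAPs replicate 4 and SCA1-Low-FAPs replicate 3 without overlapping. Means of 156.8 ± 17.5 and 85.0 ± 33.6 CPM (SD, n = 4 each) gave a 1.84-fold higher level in SCA1-High-FAPs (log2 fold change -0.88 ± 0.22 SE, 95% interval -1.33 to -0.42, adjusted p = 0.0189). The call was lost, at adjusted p-values of 0.0506 to 0.0798, when SCA1-High-FAPs replicate 3 or SCA1-Low-FAPs replicate 1, 2 or 4 was left out, with the log2 fold change between -0.83 and -0.75.

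Since the groups of *H19* and *Cdkn1c* do not overlap over all 8 samples, they do not overlap within either side of the *Xist* division, which adds no support of its own. With 2 samples per state on each side, these comparisons were not tested. With the detection of *Xist* as a term in the model, an analysis chosen after seeing the data, the log2 fold changes were -0.92 for *H19* and -2.52 for *Cdkn1c*, at adjusted p-values of 0.0101 and 0.00171.

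*Plagl1* and *Grb10*, a transcription factor and the receptor adaptor, had log2 fold changes below 0 that did not pass the thresholds. *Plagl1* (chr10:13060504-13131694, plus strand), a zinc finger factor that binds other imprinted loci, measured 41.0, 25.3, 25.5 and 29.7 CPM in SCA1-High-FAPs and 17.4, 15.2, 26.6 and 15.6 CPM in SCA1-Low-FAPs. Of the SCA1-Low-FAPs samples, replicate 3 fell inside the SCA1-High-FAPs range and the other 3 below it. The log2 fold change was -0.69 ± 0.29 SE (95% interval -1.29 to -0.08, adjusted p = 0.166).

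*Grb10* (chr11:11930508-12038683, minus strand) measured 217.5, 269.0, 241.7 and 295.9 CPM in SCA1-High-FAPs and 190.0, 180.2, 246.4 and 159.5 CPM in SCA1-Low-FAPs. Again SCA1-Low-FAPs replicate 3 alone reached the SCA1-High-FAPs range. The log2 fold change was -0.40 ± 0.16 SE (95% interval -0.74 to -0.06, adjusted p = 0.153), smaller in size than the threshold of 0.5. Counting *H19* and *Cdkn1c*, 4 of the 9 genes had an unadjusted p under 0.05, as did 2164 of all 10181 genes tested.

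*Mest* (chr6:30723547-30748465, plus strand), which encodes a protein of the alpha/beta hydrolase fold that rises in expanding adipose tissue, varied most within the groups. Its levels were 97.9, 57.0, 34.7 and 105.2 CPM in SCA1-High-FAPs and 15.0, 41.4, 63.4 and 14.0 CPM in SCA1-Low-FAPs. SCA1-High-FAPs replicate 3 lay below SCA1-Low-FAPs replicates 2 and 3 and SCA1-High-FAPs replicate 2 below SCA1-Low-FAPs replicate 3, while SCA1-High-FAPs replicates 1 and 4 were above every SCA1-Low-FAPs sample. Although the means, 73.7 ± 33.6 and 33.4 ± 23.7 CPM (SD, n = 4 each), differed 2.20-fold, the log2 fold change of -1.14 ± 0.56 SE did not pass the test (95% interval -2.42 to 0.15, adjusted p = 0.296). The 3′ end of *Mest* overlaps *Copg2* on the opposite strand, and the strand setting of the counting is not given in the sources used here, so reads there cannot be assigned with certainty. *Copg2* itself was not called (log2 fold change -0.11 ± 0.26 SE, adjusted p = 0.874).

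*Peg3* (chr7:6703892-6730431, minus strand), a zinc finger protein used as a marker of stem and progenitor cells in several tissues, measured 75.3, 42.0, 91.4 and 48.4 CPM in SCA1-High-FAPs and 44.5, 67.5, 41.6 and 42.0 CPM in SCA1-Low-FAPs. SCA1-High-FAPs replicates 1 and 3 were above every SCA1-Low-FAPs sample, and replicates 2 and 4 were among them. The difference did not pass the test (log2 fold change -0.40 ± 0.26 SE, 95% interval -0.94 to 0.14, adjusted p = 0.403).

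*Meg3* (chr12:109541001-109571726, plus strand, long intergenic noncoding RNA) was the most abundant of the 9 genes in both states. It measured 350.8, 465.7, 257.6 and 382.1 CPM in SCA1-High-FAPs and 552.5, 367.0, 438.3 and 496.6 CPM in SCA1-Low-FAPs. The ranges overlapped, with SCA1-Low-FAPs replicates 1 and 4 above all SCA1-High-FAPs samples. The log2 fold change was 0.35 ± 0.18 SE (95% interval -0.03 to 0.72, adjusted p = 0.275).

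*Dlk1* (chr12:109452823-109463336, plus strand), an epidermal growth factor-like membrane protein that restrains adipocyte differentiation, measured 37.2, 37.1, 25.5 and 26.0 CPM in SCA1-High-FAPs and 50.3, 27.8, 30.1 and 36.4 CPM in SCA1-Low-FAPs. The ranges overlapped apart from SCA1-Low-FAPs replicate 1, the highest sample. The log2 fold change was 0.20 ± 0.26 SE (95% interval -0.34 to 0.75, adjusted p = 0.725), and the interval includes a 1.27-fold higher level in SCA1-High-FAPs.

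*Ndn* (chr7:62346569-62350262, plus strand) encodes necdin, a protein that binds E2F factors and is described as a growth suppressor in resting cells. It measured 112.5, 136.5, 139.9 and 108.5 CPM in SCA1-High-FAPs and 161.0, 123.1, 126.9 and 141.8 CPM in SCA1-Low-FAPs. On the log2 scale this was the narrowest spread of the 9 genes, with SCA1-Low-FAPs replicates 2 and 3 inside the SCA1-High-FAPs range and replicates 1 and 4 above it (log2 fold change 0.15 ± 0.16 SE, 95% interval -0.18 to 0.49, adjusted p = 0.646).

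**Figure D2:**
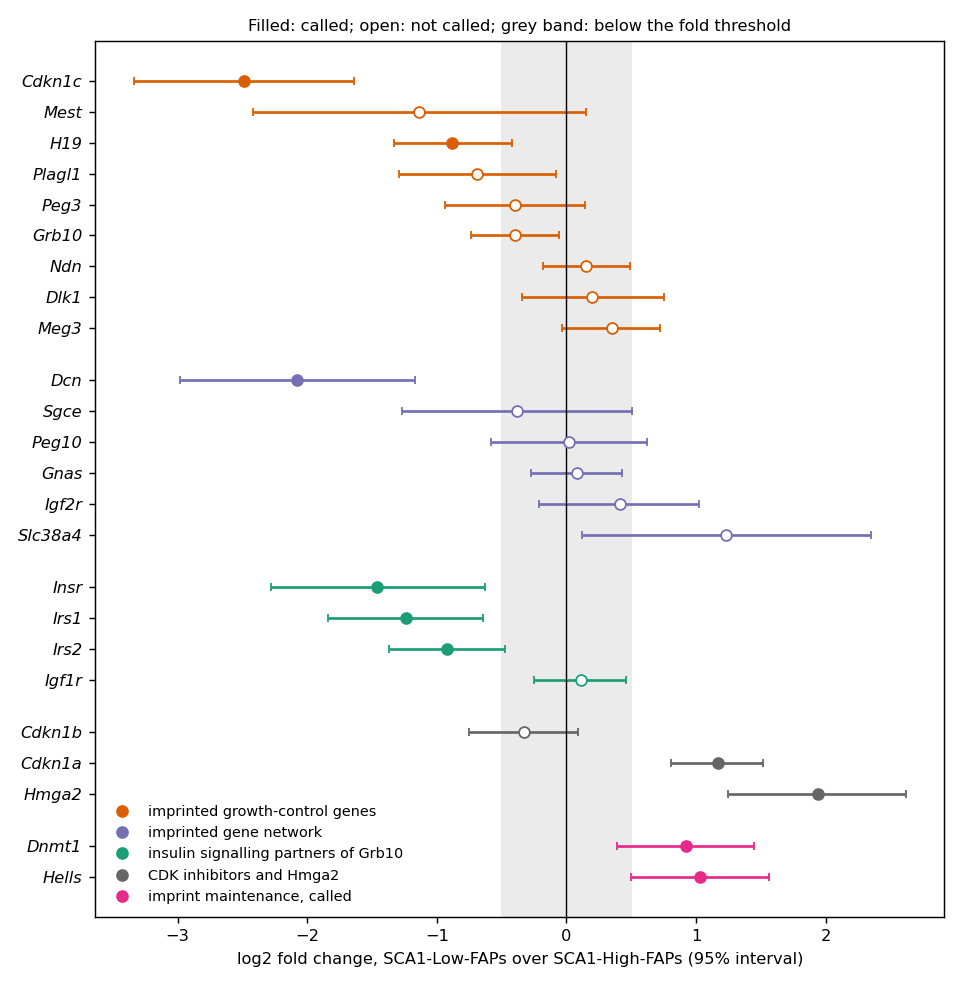
Log2 fold change (x axis, SCA1-Low-FAPs over SCA1-High-FAPs) with its 95% interval for the 9 imprinted growth-control genes and for genes of the imprinted gene network, insulin signalling, cell cycle control and imprint maintenance. Filled points passed both thresholds; *Cdkn1c* at -2.49 and *H19* at -0.88 are the filled points among the 9 genes, and the grey band marks changes under 0.5.

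Libraries of this kind place about 1 read per transcript near its 3′ end, so CPM compares genes without a correction for length. In SCA1-High-FAPs the mean levels in CPM ran from *Meg3* (364.0) through *Grb10* (256.0), *H19* (156.8), *Ndn* (124.4), *Mest* (73.7), *Cdkn1c* (67.3), *Peg3* (64.3) and *Dlk1* (31.4) to *Plagl1* (30.4). Neighbours in this order had ranges apart at *Grb10* and *H19*, at *Ndn* and *Mest*, and at *Peg3* and *Dlk1*, and overlapping ranges elsewhere. In SCA1-Low-FAPs the order was *Meg3* (463.6), *Grb10* (194.0), *Ndn* (138.2), *H19* (85.0), *Peg3* (48.9), *Dlk1* (36.2), *Mest* (33.4), *Plagl1* (18.7) and *Cdkn1c* (11.8). There the ranges of neighbours were apart at *Meg3* and *Grb10* and overlapped at every other step. *Cdkn1c* thus stood in the middle of the order in SCA1-High-FAPs and last in SCA1-Low-FAPs.

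SCA1-Low-FAPs replicate 3 was the highest SCA1-Low-FAPs sample for *H19*, *Cdkn1c*, *Mest*, *Plagl1* and *Grb10*. It was also the SCA1-Low-FAPs sample with the highest summed level of 6 adipocyte markers, 666.4 CPM against 132.5 to 266.8 CPM in the other 3, while SCA1-High-FAPs ranged from 1074 to 5628 CPM. Its summed level of 8 proliferation genes, 1096 CPM, was the lowest of SCA1-Low-FAPs, where the others had 1440 to 1604 CPM, and SCA1-High-FAPs had 566.6 to 788.0 CPM. Of the adipocyte markers 2 of 6 (*Adipoq* and *Lipe*) were called higher in SCA1-High-FAPs, beside 4.36% of all tested genes. All 6 had an unadjusted p under 0.05 in edgeR, with a median log2 fold change of -2.74. Of the proliferation genes 7 of 8 were called higher in SCA1-Low-FAPs, beside 3.32% of all tested genes. These are RNA levels after 5 days of culture. The paper instead reported a shorter doubling time for SCA1-High-FAPs in culture, with Ki-67 falling sooner as they reached confluence earlier. It also reported that a larger fraction of them took up the DNA label EdU in vivo. The part that these cell differences have in the levels of *H19* and *Cdkn1c* was not tested.

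Without SCA1-Low-FAPs replicate 3, 4 of the 9 genes were called, all higher in SCA1-High-FAPs, beside 9.85% of all genes tested then, 5.64% in that direction. On the log2 scale *H19* was then at -1.20 (adjusted p = 0.00041) and *Cdkn1c* at -3.12 (adjusted p = 3.72e-05). *Mest* then reached -1.70 (adjusted p = 0.0491) and *Grb10* -0.55 (adjusted p = 0.041), while *Plagl1* was at -0.92 without a call. No other single omission added a call among the 9.

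**Figure D3:**
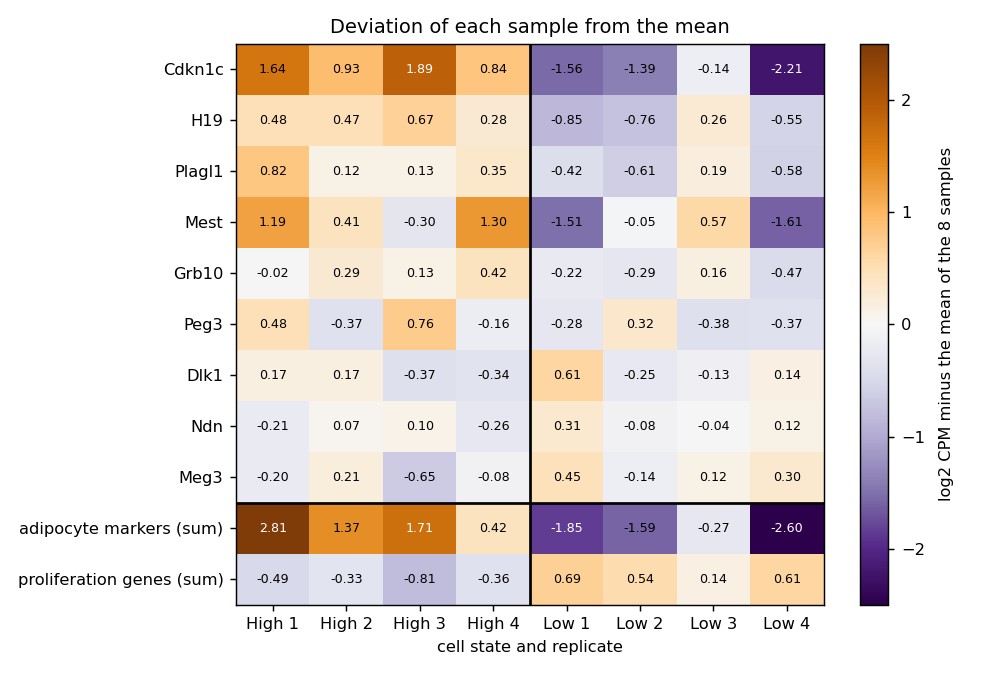
Log2 CPM of each sample minus the mean of all 8 samples (colour and printed number) for the 9 genes and, below the line, for the summed adipocyte markers and summed proliferation genes; columns are the SCA1-High-FAPs and SCA1-Low-FAPs replicates. In the column of SCA1-Low-FAPs replicate 3 (Low 3), *Mest*, *H19*, *Plagl1* and *Grb10* are above their means, by 0.57, 0.26, 0.19 and 0.16, whereas in Low 1 and Low 4 these genes and *Cdkn1c* are below.

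**Figure D4:**
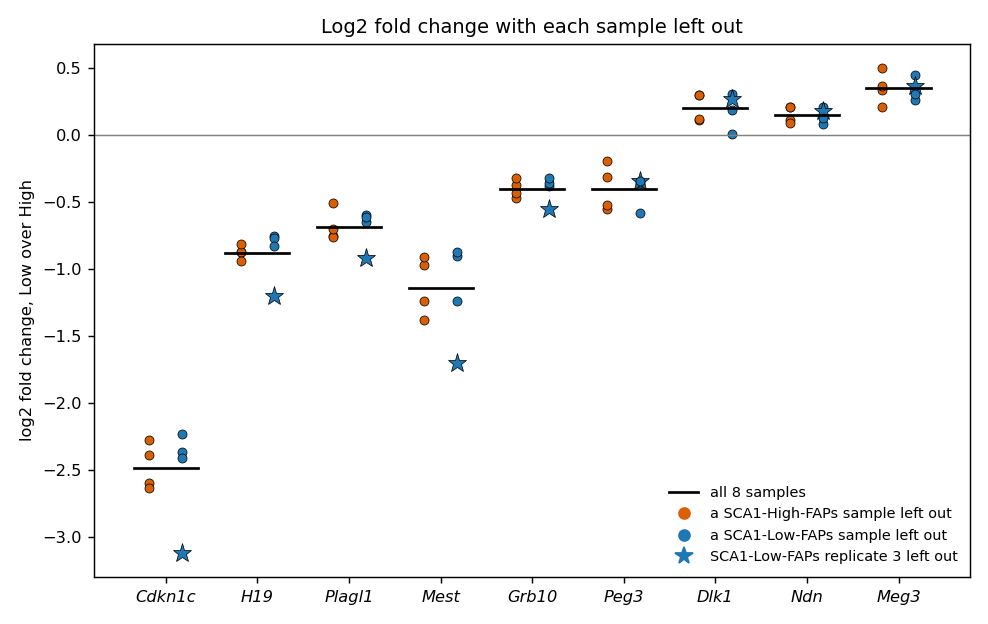
Log2 fold change (y axis, SCA1-Low-FAPs over SCA1-High-FAPs) of each of the 9 genes in all 8 samples (bars) and with each sample left out in turn (points, coloured by the state of the omitted sample). The stars, for SCA1-Low-FAPs replicate 3 left out, are the lowest values for *Cdkn1c* (-3.12), *H19* (-1.20), *Plagl1* (-0.92), *Mest* (-1.70) and *Grb10* (-0.55).

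Across the 8 samples the genes varied in partly shared ways. As a description over samples that share the division into 2 states, Pearson's r of log2 CPM was 0.93 for *H19* and *Cdkn1c* and 0.78 once the mean of each state was removed. *Cdkn1c* and *Plagl1* had r = 0.87 (0.65 with state means removed), and *Mest* and *Plagl1* had r = 0.82 (0.67). *Meg3* and *Dlk1*, neighbours on chromosome 12, had r = 0.75 (0.73). Other pairs ran in opposite directions, with r = -0.90 (-0.88) for *Meg3* and *Peg3* and r = -0.88 (-0.86) for *Mest* and *Ndn*.

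Among 5233 tested genes with a mean of at least 30 CPM, those whose pattern over the 8 samples was most like that of *Cdkn1c* were *Fxyd1* (r = 0.990) and *Deptor* (r = 0.989), a binding partner of mTOR. For *H19* they were *Tmem176b* (0.987) and *Ptpn1* (0.985), a phosphatase of the insulin receptor. For *Mest* they were *Gas6* (0.987) and *Eif3e* (0.981), for *Plagl1* *Pxdn* (0.971) and *Tgfbr3* (0.963), and for *Grb10* *Rbms3* (0.961) and *Snai2* (0.954). *Meg3* was most like *Ahnak2* (0.982) and *Prr13* (0.956), *Dlk1* like *4921524J17Rik* (0.958) and *Map3k7* (0.947), *Peg3* like *Phf20* (0.918) and *Ormdl3* (0.912), and *Ndn* like *Uba1* (0.969) and *Sart1* (0.962). With 8 points and 5233 candidates these values describe these libraries alone.

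*H19* and *Cdkn1c* lie 882.9 kb apart on distal chromosome 7, in adjoining imprinted domains that are governed by separate control regions. Of 24 genes in the files between *H19* and *Nap1l4*, 14 had a count and 7 were tested. *H19* and *Cdkn1c*, 2 of these 7, were called, beside 7.68% of all tested genes. The region starts at *H19* and takes in *Cdkn1c*, so this count repeats the 2 calls given above. *Kcnq1ot1*, the noncoding RNA whose paternal expression silences *Cdkn1c* on that copy, measured 107.3, 137.0, 101.5 and 128.0 CPM in SCA1-High-FAPs and 111.7, 61.0, 128.8 and 137.3 CPM in SCA1-Low-FAPs. Its SCA1-High-FAPs range lay inside its SCA1-Low-FAPs range (log2 fold change -0.10 ± 0.21 SE, 95% interval -0.55 to 0.35, adjusted p = 0.845). The other tested neighbours, *Ins2*, *Cd81*, *Tssc4* and *Nap1l4*, had log2 fold changes of -0.24, -0.06, 0.45 and -0.14 and were not called.

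*Igf2*, the growth factor that shares enhancers with *H19* and is read from the opposite parental copy, was close to the limit of counting. The 4 SCA1-High-FAPs samples held 30 counts and the 4 SCA1-Low-FAPs samples 5, at 2.82, 5.43, 0.835 and 3.67 CPM against 0, 0, 1.59 and 0 CPM. All 5 counts of SCA1-Low-FAPs came from replicate 3. The gene did not pass the filter of edgeR, and DESeq2 gave a log2 fold change of -2.89 ± 1.31 SE (adjusted p = 0.178), so a difference was not detectable at this depth.

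In the *Dlk1* to *Dio3* domain of chromosome 12, 15 genes were in the files, 11 had a count and 4 were tested. Of these 4, edgeR called 0, beside 7.68% of all tested genes (log2 fold changes 0.20 for *Dlk1*, 0.35 for *Meg3*, 0.26 for *Mirg* and -0.24 for *Dio3*). The count at an unadjusted p under 0.05 among these 4 was also 0, beside 2164 of all 10181 genes tested. DESeq2, which called 8.53% of all its tested genes, called 0 of these 4. *Gm26906*, antisense to the end of *Meg3*, had no count.

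**Figure D5:**
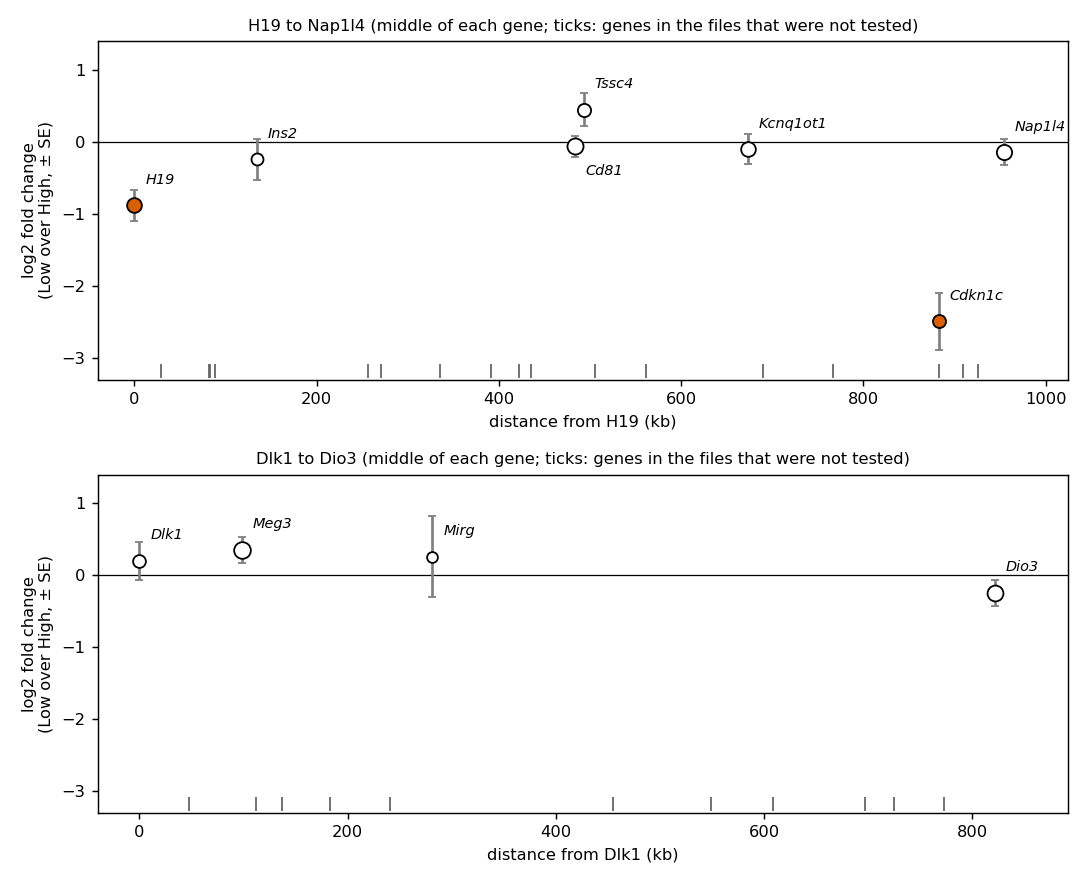
Log2 fold change with its SE (y axis) of the tested genes along the *H19* to *Nap1l4* region of chromosome 7 and the *Dlk1* to *Dio3* region of chromosome 12, by distance from the first gene in kb; larger points have a higher mean level, orange points were called and ticks mark genes that were not tested. *H19* (-0.88) stands at the start of the chromosome 7 region, where the region was set to begin. *Cdkn1c* (-2.49), at 882.9 kb, is followed by *Nap1l4* (-0.14) at 954.5 kb. The other tested genes of this region lie between -0.24 and 0.45.

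Promoter windows of 300 bases (250 before and 50 after the start, RefSeq on GRCm38.p6) were held for 7 of the 9 genes, without *H19* and *Cdkn1c*, as 11 windows. The methyl-CpG binding repressor ZFP57, which keeps imprints after fertilisation, recognises TGCCGC. On either strand this string was in a window of *Meg3*, *Mest*, *Plagl1* and *Grb10*, and in 11.6% of all 32851 windows of the same length. A further window each of *Meg3*, *Mest* and *Grb10* did not hold it. Since some genes have several windows, a count by gene is not comparable with a share of windows. GGGGCCCC, a palindrome bound by PLAGL1, was in the window of *Peg3* and in 1.08% of all windows. TGACGTCA, the full cAMP response element, was in windows of *Meg3* and *Peg3* and in 1.79% of all windows. *Meg3* ran opposite to *Cdkn1c* (r = -0.70, or -0.54 with state means removed), and its window with TGCCGC is not printed. The windows of *Mest*, *Plagl1* and *Grb10* that hold TGCCGC are printed because these 3 genes varied along with *Cdkn1c* over the 8 samples (r = 0.72, 0.87 and 0.77, or 0.45, 0.65 and 0.41 with state means removed, in that order). Capitals mark TGCCGC or its reverse complement GCGGCA, which do not overlap each other here, and the other strings are not in these windows. They lie at chr6:30737800-30738099 on the plus strand, chr10:13090582-13090881 on the plus strand and chr11:12037371-12037670 on the minus strand.

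Mest promoter: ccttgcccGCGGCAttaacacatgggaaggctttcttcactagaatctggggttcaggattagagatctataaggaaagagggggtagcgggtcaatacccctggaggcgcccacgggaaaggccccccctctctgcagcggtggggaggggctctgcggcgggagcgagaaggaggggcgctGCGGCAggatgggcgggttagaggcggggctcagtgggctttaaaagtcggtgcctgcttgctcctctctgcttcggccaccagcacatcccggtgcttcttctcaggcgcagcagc
Plagl1 promoter: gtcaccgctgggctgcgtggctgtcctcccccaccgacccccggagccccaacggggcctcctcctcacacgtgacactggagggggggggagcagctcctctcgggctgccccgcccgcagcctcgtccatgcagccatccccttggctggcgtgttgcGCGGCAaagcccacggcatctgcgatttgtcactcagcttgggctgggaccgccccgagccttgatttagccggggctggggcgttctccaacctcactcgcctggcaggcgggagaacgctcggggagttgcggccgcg
Grb10 promoter: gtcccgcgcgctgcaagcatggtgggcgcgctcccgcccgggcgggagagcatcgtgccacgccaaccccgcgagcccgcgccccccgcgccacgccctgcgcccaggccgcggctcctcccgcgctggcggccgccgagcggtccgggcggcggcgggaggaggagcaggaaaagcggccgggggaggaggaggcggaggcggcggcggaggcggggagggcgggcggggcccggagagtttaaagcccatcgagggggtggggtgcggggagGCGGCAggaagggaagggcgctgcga

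These windows hold 17, 26 and 45 CpG dinucleotides, against a median of 7 over all windows. They were picked for a string that itself contains a CpG, so this comparison is no test. The windows not printed hold 8 and 17 (*Mest*), 9 (*Grb10*), 13 and 1 (*Meg3*), 9 (*Dlk1*), 13 (*Peg3*) and 11 (*Ndn*). The presence of a string is a description of the letters, and no binding or methylation was measured.

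Of 10 other genes linked to this network, 6 were tested and *Dcn* was called higher in SCA1-High-FAPs. Of all tested genes 7.68% were called, and 4.36% in that direction. *Dcn*, which encodes the matrix proteoglycan decorin, measured 549.4, 365.7, 1037 and 408.9 CPM in SCA1-High-FAPs and 118.9, 141.0, 209.0 and 89.8 CPM in SCA1-Low-FAPs. The groups were well apart (log2 fold change -2.08 ± 0.39 SE, adjusted p = 0.0167), and the call was lost without SCA1-Low-FAPs replicate 2 or 4. *Dcn* is also among the 8 FAP markers, of which *Col3a1* was also called toward SCA1-High-FAPs, and *Ly6a* and *Thy1* toward SCA1-Low-FAPs. *Igf2r*, which clears IGF2 from the cell surface, was not called (log2 fold change 0.41 ± 0.29 SE, adjusted p = 0.470).

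Of 50 other imprinted genes in the files, 45 had a count and 23 were tested. By edgeR 0 of these 23 were called, beside 7.68% of all tested genes. An unadjusted p under 0.05 was found for 0 of them, beside 2164 of all 10181 genes tested. DESeq2, which called 8.53% of all its tested genes, also called 0 of these 23. Their log2 fold changes ran from -0.93 to 0.90 with a median of -0.06, and the lowest adjusted p was 0.27.

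Genes that work with the 9 were also followed. *Insr*, *Irs1* and *Irs2*, the insulin receptor and the substrates that pass on its signal, are the pathway that *Grb10* dampens. *Irs1* measured 154.0, 71.9, 91.0 and 100.8 CPM in SCA1-High-FAPs and 33.8, 44.6, 69.5 and 28.8 CPM in SCA1-Low-FAPs. Its groups were close but separate (log2 fold change -1.24 ± 0.28 SE, adjusted p = 0.0140), and the call was lost without SCA1-Low-FAPs replicate 1 or 2. *Irs2* measured 102.2, 109.0, 112.7 and 71.1 CPM in SCA1-High-FAPs and 65.3, 38.1, 59.9 and 45.1 CPM in SCA1-Low-FAPs, and it kept its call in every alternative (log2 fold change -0.92 ± 0.21 SE, adjusted p = 0.0128). *Insr*, at 12.2 to 19.8 CPM against 4.36 to 7.25 CPM, was called as well (-1.46 ± 0.39 SE, adjusted p = 0.0291). *Insr* lost its call when the replicate number was a block and when any of 6 single samples was left out, and it was not tested with at least 10 counts required in every sample. *Igf1r*, the receptor of the insulin-like growth factors, was not called (log2 fold change 0.11 ± 0.17 SE, adjusted p = 0.787).

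Of the sister inhibitors of *Cdkn1c*, *Cdkn1a* was higher in SCA1-Low-FAPs and *Cdkn1b* was not called. *Cdkn1a* (p21) measured 350.8, 392.9, 318.6 and 351.0 CPM in SCA1-High-FAPs and 943.5, 668.1, 585.8 and 973.6 CPM in SCA1-Low-FAPs. All SCA1-Low-FAPs samples were higher, with replicate 3 the nearest to SCA1-High-FAPs (log2 fold change 1.17 ± 0.17 SE, adjusted p = 0.000672). *Cdkn1b* (p27), at 71.9 to 117.0 CPM against 60.4 to 90.1 CPM, had a log2 fold change of -0.33 ± 0.20 SE that did not pass the test (95% interval -0.75 to 0.09, adjusted p = 0.367).

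*Hmga2*, a chromatin protein of growing mesenchymal cells, measured 34.8, 34.8, 32.6 and 54.3 CPM in SCA1-High-FAPs and 195.8, 111.6, 75.5 and 217.5 CPM in SCA1-Low-FAPs. Here too SCA1-Low-FAPs replicate 3 was the one nearest to SCA1-High-FAPs (log2 fold change 1.94 ± 0.31 SE, adjusted p = 0.00284). Of the 25 partner genes 21 were tested, edgeR called 3 higher in SCA1-High-FAPs and 2 higher in SCA1-Low-FAPs, beside 4.36% and 3.32% of all tested genes, and their median log2 fold change was 0.19. *Ccnd1*, which encodes cyclin D1, measured 138.9, 98.6, 34.7 and 38.1 CPM in SCA1-High-FAPs and 280.8, 142.7, 78.3 and 190.9 CPM in SCA1-Low-FAPs. The ranges overlapped and the gene was not called (log2 fold change 1.16 ± 0.58 SE, adjusted p = 0.319), but it was called higher in SCA1-Low-FAPs with the replicate number as a block and with *Xist* detection as a term.

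Imprints are copied at cell division by the methylation machinery. Of 21 genes that maintain or erase them 18 were tested and edgeR called 2, both higher in SCA1-Low-FAPs, beside 7.68% of all tested genes called and 3.32% in that direction. DESeq2 called those 2 and *Dnmt3a*, the latter higher in SCA1-High-FAPs. *Dnmt1*, the enzyme that copies methylation to the new strand, measured 61.2, 52.0, 44.7 and 79.9 CPM in SCA1-High-FAPs and 136.8, 73.5, 81.2 and 157.3 CPM in SCA1-Low-FAPs. SCA1-High-FAPs replicate 4 lay above SCA1-Low-FAPs replicate 2, and the other values were apart (log2 fold change 0.92 ± 0.25 SE, adjusted p = 0.0340). *Hells*, a chromatin remodeller that works with it, was at 22.6 to 30.1 CPM against 39.0 to 80.2 CPM (1.03 ± 0.25 SE, adjusted p = 0.0177). The call of *Dnmt1* was lost without any of SCA1-High-FAPs replicates 1, 2 and 3 or SCA1-Low-FAPs replicates 1 and 4, and that of *Hells* without SCA1-Low-FAPs replicate 1. Both genes are also known to rise in dividing cells, and the summed proliferation genes were higher in SCA1-Low-FAPs, as given above; the part of cell division in this difference was not tested. *Dnmt3a*, a methyltransferase that can set new marks, was at 56.8 to 81.0 CPM against 31.9 to 49.5 CPM, with no overlap, and did not pass the threshold of edgeR in all 8 samples (log2 fold change -0.67 ± 0.21 SE, adjusted p = 0.0598). Besides DESeq2, edgeR called it higher in SCA1-High-FAPs with at least 10 counts required in every sample and without SCA1-Low-FAPs replicate 3.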

How the data were processed

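RNA of FAPs from *mdx* mice was measured in 8 samples, 4 SCA1-High-FAPs and 4 SCA1-Low-FAPs, grouped as labelled. The deposited values are whole-number counts per gene, which the authors obtained from QuantSeq 3′ mRNA reads, aligned with STAR to the mouse genome (mm10) and assigned with HTSeq to Ensembl genes. Reads with several alignments were left out of genes, and made up 37.5% to 39.7% of tallied reads in SCA1-High-FAPs and 40.8% to 43.3% in SCA1-Low-FAPs. Reads on no feature (7.87% to 10.2%) were not used as genes. The strand setting is not given in the sources used here.

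Of 31053 genes, 31011 were matched by identifier to GENCODE M21. The cell states were compared with edgeR 4.0.16 in R 4.3.3, with filterByExpr (minimum 10 counts, 15 in total), TMM normalisation, the robust quasi-likelihood test and Benjamini-Hochberg adjustment over the 10181 genes tested. CPM are counts per 1000000 counts on tested genes, normalised by TMM, and no pseudocount enters a printed CPM. The biological coefficient of variation was 0.279. Calls needed an adjusted p under 0.05 and a log2 fold change beyond 0.5. Alternatives were DESeq2 1.42.0, RLE normalisation, other count filters, the replicate number as a block, each sample left out and, added after the data were seen, *Xist* detection as a term. The test was tested on simulated data.

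The 9 genes and all lists were chosen with earlier results of these data known. All 9 genes are named, then each called gene of the lists of network, other imprinted, partner and imprint maintenance genes, *Igf2*, *Igf2r*, *Cdkn1a* and *Cdkn1b*, and for each of the 9 the 2 most similar genes over the 8 samples. Other genes were named to describe markers, neighbours and overlaps, after their values were seen.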

Additional observations from a re-analysis of the deposited data

Results flagged for a closer look

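Within each group of 4 samples, the gap of the highest or lowest sample to its nearest neighbour was set against the range of the group (Dixon's test at 95%), for 38 gene and group combinations. Chance alone flags about 1 in 20 groups, and 2 were flagged. *Peg3* stood out in SCA1-Low-FAPs replicate 2, at 67.5 CPM against 41.6 to 44.5 CPM in the other 3. *Hmga2* stood out in SCA1-High-FAPs replicate 4, at 54.3 CPM against 32.6 to 34.8 CPM in the other 3, and this sample remained below the lowest SCA1-Low-FAPs sample at 75.5 CPM.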

How the results depend on the processing

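No direction was reversed in any of the 14 alternatives for any of the 9 genes. With each sample left out, the log2 fold change ranged from -1.20 to -0.75 for *H19*, -3.12 to -2.23 for *Cdkn1c*, 0.21 to 0.50 for *Meg3*, 0.01 to 0.31 for *Dlk1*, -1.70 to -0.87 for *Mest*, -0.58 to -0.19 for *Peg3*, 0.08 to 0.21 for *Ndn*, -0.92 to -0.51 for *Plagl1* and -0.55 to -0.32 for *Grb10*. The number called ranged from 1 to 4 among the 9 genes, from 0 to 1 among the other network genes and stayed at 0 among the 23 tested other imprinted genes. Among all genes it ranged from 410, without SCA1-Low-FAPs replicate 4, to 1017, without SCA1-Low-FAPs replicate 3. It was 417 without SCA1-Low-FAPs replicate 1, against 782 in all 8 samples. These omissions also change the number of samples and of genes tested. The remaining alternatives called *H19* and *Cdkn1c* and gave 697 to 1065 genes in all, with 1065 from DESeq2 and 1052 without a filter beyond 1 count.

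The labels do not say whether equal replicate numbers are the same mouse, although *Xist* and the Y-linked genes divide the numbers alike in both states. Correlations of same-numbered samples, after group means were removed, ran from -0.0502 to 0.00673, against -0.282 to 0.255 for other numbers, and 0 of 8 samples correlated best with their own number. With the replicate block 697 genes were called, 619 of them shared with the 782; the log2 fold changes were -0.94 for *H19* (adjusted p = 0.0118) and -2.61 for *Cdkn1c* (adjusted p = 0.000203), and the block changed no call among the 9. With *Xist* detection as a term 850 genes were called. Depth limits the low genes, chiefly *Igf2* with 35 counts in all, and *Cdkn1c* in SCA1-Low-FAPs with as few as 18 counts in a sample. Since the mice are 4 and both states come from them, p-values cover the spread between these samples.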
